A study of Mus musculus with 16 samples.

Results

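Transcripts of 10 genes used as surface and identity markers of type 1 conventional dendritic cells (cDC1) were read in cDC1 sorted from mouse lymph nodes. The genes were Xcr1, Cd8a, Itgae, Cadm1, Btla, Cd24a, Itgax, Snx22, Gcsam and Naaa, 10 of the 19938 genes measured. They were chosen by name, and each was represented by the brightest probe set that carries its symbol. Each of the 10 has 1 such probe set on the array, so no choice between probe sets was needed.

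The cells came from C57BL/6 mice lacking WDFY4 (KO) or heterozygous for it (Het). All mice had received tumours of a kind that regresses, placed in the back flank, and inguinal lymph nodes were taken on day 6, digested with Collagenase B and DNaseI, and sorted for cDC1. The 4 groups, each with 4 arrays, were KO draining, Het draining, KO non-draining and Het non-draining cells. Het cells keep 1 intact copy of Wdfy4, so no group is wild type, and every group, the non-draining ones included, came from a mouse that had received a tumour. The labels give neither the construction of the KO allele nor the sort gate, the sex or the age of the mice, and they do not say whether an array is 1 mouse or a pool. What the p-values measure is therefore the spread of these samples, which may be technical. Arrays are numbered 1 to 4 in every group, and the labels do not say what a number marks.

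The cDC1 are the conventional dendritic cells that take up dead cells and show pieces of them to CD8 T cells on MHC class I, and their development depends on the factors IRF8 and BATF3. WDFY4, of the BEACH-domain family, is needed by cDC1 for this cross-presentation. Lymph nodes hold resident cDC1, which carry CD8 alpha, and cDC1 that migrate in from the skin, which carry CD103, the integrin chain encoded by Itgae. In bulk RNA from sorted cells, fewer cells of a type and less RNA per cell cannot be told apart.

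Values are array intensities on a linear scale. Differences are in log2(intensity + 1), with ± the standard error, and a gene passed when limma's p-value, adjusted over all 19938 genes, was under 0.05. Differences were taken between samples of the same gene, since each probe set has its own brightness. The check of the label below sets genes side by side and beside the median probe set, and is only a rough guide for that reason. Sums over a list, given further on, weigh its brightest probe sets most. All 10 markers were among the 9969 genes with a mean level above the median gene. The label cDC1 was checked against other markers. Xcr1 read 1240 to 2495 over the 16 arrays and Clec9a, the receptor for exposed actin on dead cells, 1031 to 1777. Ms4a1, which encodes the B cell protein CD20, read 21.1 to 60.4, where the median probe set of an array read 38.6 to 40.8. Cd3e, of the T cell receptor complex, read 94.4 to 279, Sirpa, carried by cDC2, 67.2 to 171, and Ccr7, carried by migrating dendritic cells, 3354 to 5731. Ms4a1 does not stand for its whole list: the 11 B cell markers summed to 504 to 1059 on an array. The 7 markers of plasmacytoid dendritic cells summed to 1278 to 2181, and the 10 cDC1 markers to 9917 to 15744. Wdfy4 itself read 1786 to 2785 in KO draining, 2463 to 3450 in Het draining, 1923 to 3165 in KO non-draining and 2278 to 3332 in Het non-draining cells. Both pairs of groups overlapped, and the difference of KO from Het averaged over both nodes was -0.32 ± 0.12 with an adjusted p of 1.00 in limma. The labels do not say which exons are deleted, so this reading cannot tell whether the probes lie in the deleted stretch.

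The promoter windows of the markers are shown because some of these genes differed together between arrays, as described further on. RefSeq (GRCm38.p6) windows from 250 bases before to 50 bases after the start were matched for 7 of the 10 genes, namely Xcr1, Cd8a, Btla, Itgax, Snx22, Gcsam and Naaa. Those of Xcr1, Itgax and Naaa belong to genes that passed in the comparison of array numbers, and that of Cd8a carries motif matches. Each is given 5′ to 3′ on the strand of its gene, with matched motifs in capitals. They lie at chr9:123861980-123862279 (minus strand) for Xcr1, chr7:128129300-128129599 (plus strand) for Itgax, chr5:92278132-92278431 (minus strand) for Naaa and chr6:71373177-71373476 (plus strand) for Cd8a.
Xcr1: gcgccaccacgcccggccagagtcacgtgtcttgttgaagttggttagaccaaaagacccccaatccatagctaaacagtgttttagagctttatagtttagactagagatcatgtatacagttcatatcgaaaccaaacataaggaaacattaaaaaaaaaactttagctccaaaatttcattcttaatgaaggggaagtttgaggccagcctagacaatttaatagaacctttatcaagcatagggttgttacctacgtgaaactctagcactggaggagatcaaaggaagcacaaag
Itgax: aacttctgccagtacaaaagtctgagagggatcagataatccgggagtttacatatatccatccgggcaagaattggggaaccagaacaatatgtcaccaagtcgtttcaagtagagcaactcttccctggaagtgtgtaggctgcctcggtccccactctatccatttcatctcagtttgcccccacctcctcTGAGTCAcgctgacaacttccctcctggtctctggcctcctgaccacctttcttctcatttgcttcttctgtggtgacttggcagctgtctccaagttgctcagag
Naaa: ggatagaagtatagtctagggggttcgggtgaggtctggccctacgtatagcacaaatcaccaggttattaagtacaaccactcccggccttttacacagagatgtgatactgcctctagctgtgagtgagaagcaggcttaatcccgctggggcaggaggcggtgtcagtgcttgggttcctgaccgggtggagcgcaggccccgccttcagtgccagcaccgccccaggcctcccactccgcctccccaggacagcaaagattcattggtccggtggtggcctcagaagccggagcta
Cd8a: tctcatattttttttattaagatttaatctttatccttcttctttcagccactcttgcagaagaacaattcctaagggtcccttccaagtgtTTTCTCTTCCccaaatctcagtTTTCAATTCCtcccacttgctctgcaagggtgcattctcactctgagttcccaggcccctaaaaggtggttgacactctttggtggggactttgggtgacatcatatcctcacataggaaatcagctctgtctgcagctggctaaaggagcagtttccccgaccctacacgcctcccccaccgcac

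The motifs searched on both strands were those of factors known to act in cDC1. The AP-1 motif TGANTCA, the kind of site to which BATF3 with a JUN partner binds, was in 7.81% of all 32851 promoter windows. It was in 1 of the 7 genes, Itgax. There TGAGTCA starts 56 bases before the start used for the window, which is not the first base of the gene given below. The composite of an ETS and an IRF motif, GGAA and GAAA with 2 bases between, was in 2.72% of all windows and in 1 of the 7 genes, Cd8a. Both its matches read on the minus strand, TTTCTCTTCC starting 158 and TTTCAATTCC starting 136 bases before the start. The composites of AP-1 and IRF, TGANTCA 4 bases after TTTC and TGANTCA right after GAAA, which overlap the plain AP-1 motif, were in 0.119% and 0.125% of all windows and in 0 of the 7, and the interferon response core, GAAA and GAAA with 2 bases between, was in 3.44% and in 0 of the 7. A match is a run of letters and not a measured binding site. The genes themselves lie on chromosome 9 (Xcr1 at 123852315 to 123862029, Cadm1 at 47530170 to 47862280, Snx22 at 66065174 to 66069759), chromosome 16 (Btla at 45223705 to 45252895, Gcsam at 45610440 to 45622867, 0.36 Mb apart), chromosome 6 (Cd8a at 71373427 to 71379171), chromosome 11 (Itgae at 73090505 to 73147449), chromosome 10 (Cd24a at 43579169 to 43584265), chromosome 7 (Itgax at 128129526 to 128150657) and chromosome 5 (Naaa at 92257660 to 92278181), all on GRCm38.p6.

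The first question was whether the markers differed between KO and Het cells that had been sorted as cDC1. The labels do not give the gate, so it is not known which of the 10 the cells were selected on. No marker passed in either node, and 0% of all genes did in either node (limma, adjusted p under 0.05). In the non-draining node all 10 markers were higher in KO than in Het cells, with a median difference of 0.26 against 0.00 over all genes. Of all genes 51.9% were higher there. The markers varied together over the arrays, as given further on. Counts of their direction, here and below, are therefore not separate observations. In the draining node 5 of 10 were higher and 5 lower, with a median of 0.01 (-0.06 within arrays 1 and 2, 0.11 within arrays 3 and 4). The 4 markers Snx22, Btla, Gcsam and Cd8a had an unadjusted p under 0.05 in the non-draining node, where 1.30% of all genes were higher at that p and 2.48% differed in either direction. At that p 0 markers differed in the draining node, against 3.39% of all genes. No marker separated KO from Het arrays without overlap in either node, against 1.58% of all genes in draining and 2.39% in non-draining nodes.

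**Figure D1:**
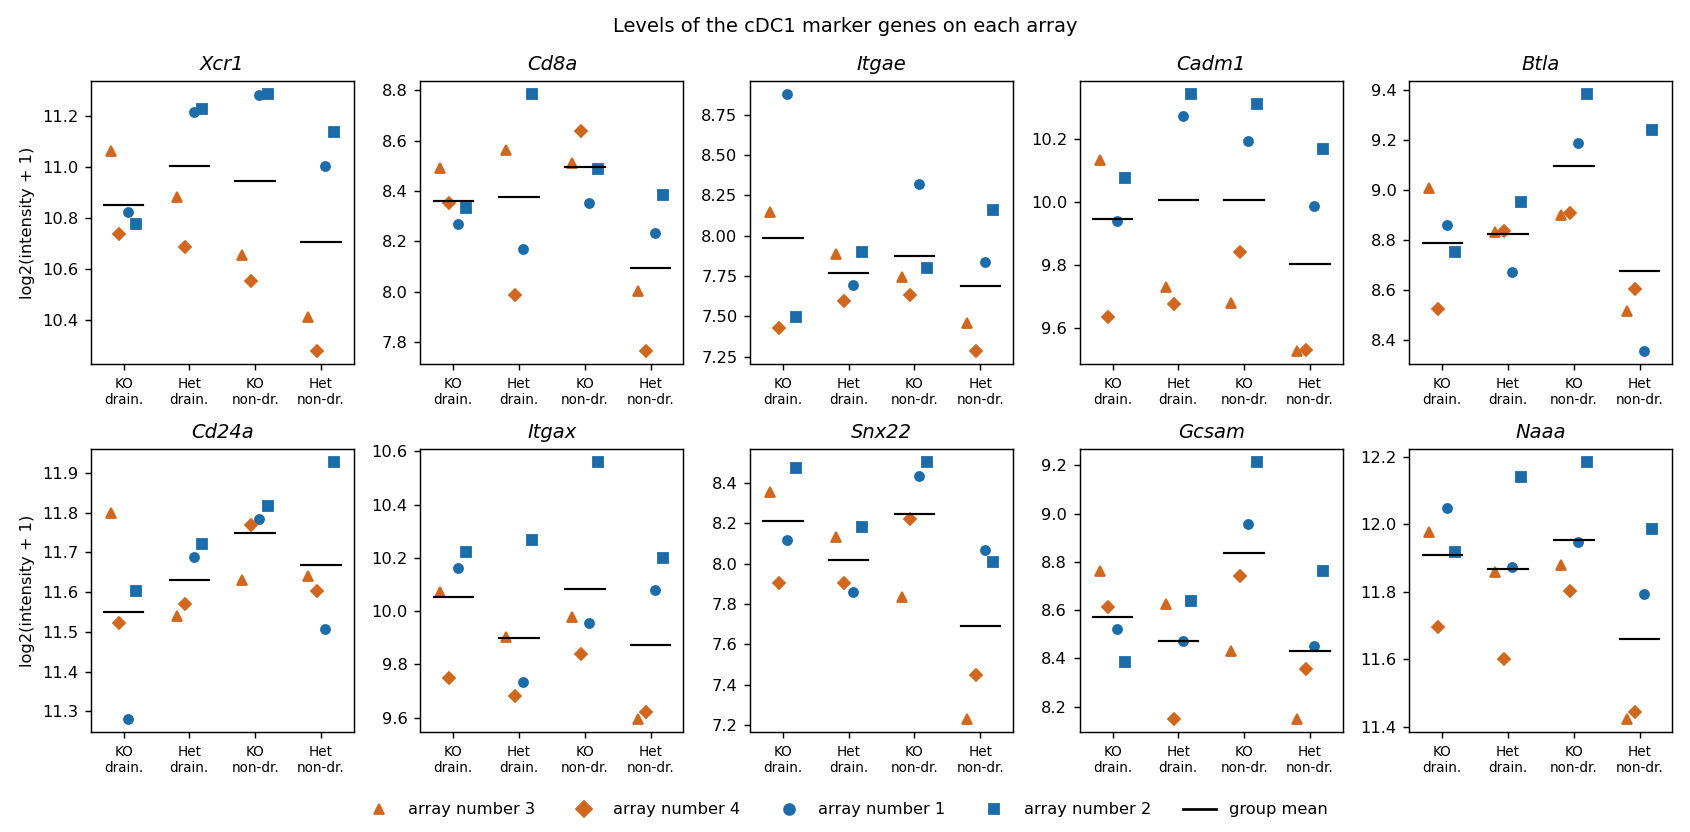
Log2(intensity + 1) of each of the 10 markers on the 16 arrays (vertical axis) by group (horizontal axis), 1 panel a gene, with array numbers told apart by symbol and each group's mean as a line. The Het cells of the non-draining node have the lowest mean for 9 of the 10 genes, and KO and Het arrays of a node overlap in every panel.

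Xcr1 encodes the receptor for XCL1, a chemokine made by activated CD8 T and NK cells, and it is the receptor by which cDC1 are most often defined. In the draining node it read 1812, 1755, 2138 and 1706 on KO arrays 1 to 4, against 2378, 2396, 1886 and 1645 on Het arrays 1 to 4. The non-draining readings were 2487, 2495, 1611 and 1503 on KO arrays, against 2054, 2252, 1360 and 1240 on Het arrays. The KO and Het arrays of the non-draining node overlapped, with arrays 3 and 4 low in both genotypes. The differences of KO from Het were -0.15 ± 0.21 in draining and 0.24 ± 0.21 in non-draining nodes (both with an adjusted p of 1.00, limma).

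Cd8a encodes the alpha chain of CD8, carried as a homodimer by resident cDC1 and together with the beta chain by CD8 T cells. It read 326, 358, 363 and 397 on KO arrays of the non-draining node, against 299.9, 333, 255 and 216 on its Het arrays. All but 1 of the KO readings were above the highest Het reading, and the difference was 0.40 ± 0.16 (unadjusted p = 0.0211, adjusted p = 1.00, limma). Within arrays 1 and 2 alone it was 0.11 and within arrays 3 and 4 alone 0.69. The draining values of Cd8a were 307 to 359 on KO arrays and 253 to 440 on Het arrays, a difference of -0.02 ± 0.16. Cd8b1, the beta chain that cDC1 do not make, was -0.09 ± 0.28 in KO against Het cells of the non-draining node.

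The adhesion molecules did not reach even an unadjusted p under 0.05. Itgae read 171 to 470 on KO arrays and 193 to 237 on Het arrays of the draining node. Its KO draining array 1 at 470 was the highest of all 16, and the SD of the log2 level in that group was 0.68, the widest of the 10 markers in any group. Its differences of KO from Het were 0.22 ± 0.27 in draining and 0.19 ± 0.27 in non-draining nodes. Cadm1, a cell adhesion molecule that binds CRTAM on activated T cells, differed by -0.06 ± 0.19 and 0.20 ± 0.19. Itgax encodes CD11c, the integrin chain found on all conventional dendritic cells, and differed by 0.15 ± 0.18 in draining and 0.21 ± 0.18 in non-draining nodes.

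Btla encodes an inhibitory receptor for HVEM that B cells and T cells carry as well as cDC1. It read 582, 668, 478 and 480 on KO arrays of the non-draining node, against 327, 604, 365 and 388 on its Het arrays. All Het arrays except array 2 were below every KO array, and the difference was 0.42 ± 0.17 (unadjusted p = 0.0228, adjusted p = 1.00, limma). In draining nodes it read 368 to 514 on KO arrays and 408 to 495 on Het arrays, a difference of -0.04 ± 0.17. Cd24a, a small glycoprotein anchored in the membrane by a lipid and also abundant on developing B cells, had the smallest standard errors of the 10. It differed by -0.08 ± 0.11 in draining and 0.08 ± 0.11 in non-draining nodes.

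Among the intracellular markers, Snx22 is a sorting nexin, of a family of phosphoinositide-binding proteins of the endosomal system. It read 345, 362, 227 and 297 on KO arrays of the non-draining node, against 267, 257, 149 and 174 on its Het arrays. The KO array numbered 3 lay below both Het arrays numbered 1 and 2, so the groups overlapped. Its difference of 0.56 ± 0.19 was the largest of the 10 (unadjusted p = 0.00946, adjusted p = 1.00, limma). The draining values of Snx22 were 239 to 355 on KO arrays and 231 to 289 on Het arrays, a difference of 0.19 ± 0.19.

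Gcsam, a signalling adaptor known from germinal centre B cells, read 496, 593, 344 and 427 on KO arrays of the non-draining node, against 349, 433, 283 and 326 on Het arrays. KO arrays 3 and 4 lay inside the Het range, and the difference was 0.41 ± 0.16 (unadjusted p = 0.0245, adjusted p = 1.00, limma). Naaa encodes a lysosomal hydrolase of N-acylethanolamines. It read 3949, 4658, 3765 and 3575 on KO arrays of that node, against 3548, 4059, 2744 and 2784 on Het arrays, a difference of 0.29 ± 0.14 (unadjusted p = 0.0541). The draining differences were 0.10 ± 0.16 for Gcsam and 0.04 ± 0.14 for Naaa.

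Markers of other cells differed beside these values. In the non-draining node all 11 B cell markers were higher in KO cells, with a median difference of 0.46, and 3 of them had an unadjusted p under 0.05 (Ms4a1 0.73 ± 0.26, Fcmr 0.53 ± 0.19, Pax5 0.51 ± 0.21), where 1.30% of all genes were higher at that p and 2.48% differed in either direction. Their summed intensity was 671 to 1059 on KO arrays and 504 to 901 on Het arrays. All 13 T cell markers were lower, with a median of -0.28, and their sum was 1350 to 3436 on KO arrays and 1870 to 3527 on Het arrays. Of the 13, Cd5 at -0.62 ± 0.27 and Cd6 at -0.57 ± 0.25 had an unadjusted p under 0.05 (limma). All 8 markers of migratory dendritic cells were lower too, with a median of -0.14. Of the 18 other cDC1 genes 13 were higher and 5 lower, with a median of 0.20. In the draining node, where the 10 markers had a median near 0, all 13 T cell markers were higher in KO cells with a median of 0.29, and 10 of 11 B cell markers with a median of 0.20. None of these genes passed (limma, adjusted p under 0.05), and the part of other cells in the marker differences was not tested. For the 10 markers in the non-draining node, arrays 1 and 2 alone gave a median of 0.18 and arrays 3 and 4 alone 0.33, and it was 0.17 without Het array 3 or without Het array 4.

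The second comparison set the draining node against the non-draining node within each genotype. It asked whether the markers differ in cells of the node that drains the tumour. No marker passed in Het or in KO cells, and 0% of all genes passed in either (limma, adjusted p under 0.05). At an unadjusted p under 0.05 the count of markers was 0 in both genotypes, against 3.29% of all genes in Het and 2.11% in KO cells. No marker separated the nodes without overlap in either genotype, where 2.40% of all genes did in Het and 1.44% in KO cells.

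In Het cells 9 of the 10 markers were higher in the draining node, with a median difference of 0.17 against 0.01 over all genes, of which 52.8% were higher. Snx22 differed by 0.33 ± 0.19, Xcr1 by 0.29 ± 0.21, Cd8a by 0.28 ± 0.16, Naaa by 0.21 ± 0.14 and Cadm1 by 0.20 ± 0.19, while Cd24a differed by -0.04 ± 0.11. Set against the Het array of the same number, a count chosen after seeing the data, the draining array was higher in all 4 pairs for 3 markers, Xcr1, Cadm1 and Naaa, where 7.45% of all genes were higher in all 4. It was higher in 3 pairs for Cd8a, Btla, Itgax and Snx22, in 2 for Itgae and Gcsam and in 1 for Cd24a. With the array number as a block no marker passed (limma, adjusted p of 1.00). Arrays 1 and 2 alone gave a median of 0.00 and arrays 3 and 4 alone 0.29. It was 0.10 without Het draining array 2 or without Het non-draining array 3, and 0.32 without Het non-draining array 2. All 13 T cell markers were lower in the draining node of Het mice, with a median of -0.39 and a sum of 1775 to 3213 in draining and 1870 to 3527 in non-draining nodes.

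In KO cells 9 of the 10 were lower in the draining node, with a median of -0.08 against 0.00 over all genes, of which 50.7% were higher. Btla differed by -0.31 ± 0.17, Gcsam by -0.26 ± 0.16 and Cd24a by -0.20 ± 0.11, and Itgae was the 1 marker with a positive difference, at 0.11 ± 0.27. Arrays 1 and 2 alone gave a median of -0.21 and arrays 3 and 4 alone 0.05, and it was 0.03 without KO non-draining array 2. It was -0.03 under an added quantile normalization, -0.01 without KO draining array 4, -0.14 without KO draining array 3 and -0.17 without KO non-draining array 3. Here all 13 T cell markers were higher in the draining node, with a median of 0.24. Of the 11 B cell markers 9 were lower and 2 higher, with a median of -0.19. At an unadjusted p under 0.05 (limma) there was 1 B cell marker, against 2.11% of all genes. The part of other cells in these differences was not tested. The comparisons share arrays: the Het cells of the non-draining node, which had the lowest mean for 9 of the 10 markers, are the set against which both the KO cells of that node and the Het cells of the draining node were read.

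The order of the 4 groups put KO cells of the non-draining node highest for 8 markers, Het cells of the draining node highest for Xcr1 and KO cells of the draining node highest for Itgae. Het cells of the non-draining node were lowest for all markers except Cd24a, which was lowest in KO cells of the draining node. From highest to lowest group the mean log2 levels spanned 0.56 for Snx22, 0.42 for Btla, 0.41 for Gcsam and 0.40 for Cd8a. For these 4 the span runs from KO to Het cells of the non-draining node, so it restates the difference given above and adds no further support. In these 4 a step between neighbouring groups was wider than the pooled SD within groups. In the other 6 no step was wider than that SD, and their span was between 0.20 for Cd24a and 0.30 for Itgae.

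Whether the difference between genotypes depended on the node was tested with the interaction, the KO minus Het difference in the draining node minus that in the non-draining node. It was negative for 9 of the 10 markers, with a median of -0.29 against -0.01 over all genes, of which 47.7% were positive. In it 0 markers passed, as did 0% of all genes (limma, adjusted p under 0.05). At an unadjusted p under 0.05 there were 0 markers, against 2.32% of all genes. The largest in size were Btla at -0.45 ± 0.23 (unadjusted p = 0.0708, limma) and Cd8a at -0.42 ± 0.22 (unadjusted p = 0.0786, limma), and Itgae at 0.03 ± 0.38 was the 1 marker with a positive value. The median was -0.18 without KO non-draining array 2. All 13 T cell markers had the opposite sign, with a median of 0.59. Of the 11 B cell markers 8 were negative and 3 positive, with a median of -0.20. The part of either list in the interaction was not tested.

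**Figure D2:**
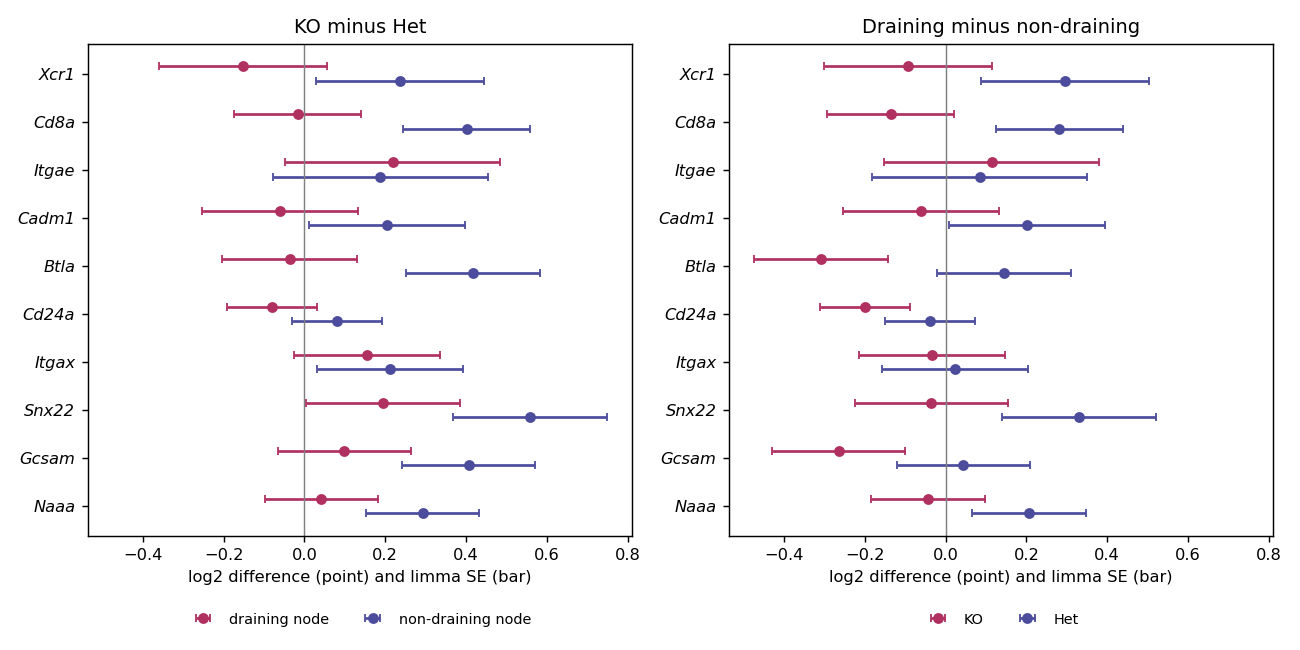
Log2 difference of each of the 10 markers (horizontal axis) with its limma standard error as a bar, for KO against Het cells in each node and for the draining against the non-draining node in each genotype. In the non-draining node all 10 markers lie above 0 in KO against Het cells, from 0.08 for Cd24a to 0.56 for Snx22, and none passed after adjustment.

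Averaged over both nodes, all 10 markers were higher in KO than in Het cells, with a median of 0.19, where 50.8% of all genes were higher. The direction of the markers did not hold within arrays 1 and 2 alone, where 6 were higher and Xcr1, Cd8a, Cadm1 and Cd24a were lower, with a median of 0.12. Arrays 3 and 4 alone gave a median of 0.21. Of the 10 markers 2, Snx22 at 0.38 ± 0.13 (unadjusted p = 0.0126, limma) and Gcsam at 0.25 ± 0.12 (unadjusted p = 0.0445, limma), had an unadjusted p under 0.05, where 1.75% of all genes were higher at that p and 3.49% differed in either direction. The differences of Xcr1 at 0.04 ± 0.15 and Cd24a at 0.00 ± 0.08 were smaller than their errors. None passed, and neither did any gene in this comparison (0%, limma adjusted p under 0.05). In it all 11 B cell markers were higher too, with a median of 0.36. Of these, 6 had an unadjusted p under 0.05 (limma), where 1.75% of all genes were higher at that p. Of the 13 T cell markers 5 were higher and 8 lower, with a median of -0.05. The part of other cells in this comparison was not tested. Averaged over both genotypes, draining minus non-draining was positive for 6 markers and negative for 4, with a median of 0.07, and 0 markers had an unadjusted p under 0.05, against 3.06% of all genes. The sign of that median depended on the arrays used: arrays 1 and 2 alone gave -0.10 and arrays 3 and 4 alone 0.13. Leaving out 1 array moved it to between 0.01, without Het draining array 2, and 0.13, without Het non-draining array 2 or Het draining array 4. It was 0.02 without KO draining array 1 or Het non-draining array 4, 0.03 without array 3 of either non-draining group, 0.04 without KO non-draining array 4, and 0.05 without KO draining array 3 or Het draining array 1.

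The markers were then described by array number, with the group held constant in the fit. The split of numbers 3 and 4 against 1 and 2 was taken with earlier results of these data known, so its p-values are no independent support for the split. All 10 markers were lower on arrays 3 and 4, with a median difference of -0.30 against -0.03 over all genes, of which 42.2% were higher. Of the 10, 4 passed (limma, adjusted p under 0.05): Xcr1, Cadm1, Itgax and Naaa fell. Of all genes 11.1% passed, made up of 3.88% lower and 7.20% higher. When the 4 numbers were compared with no split named (limma F test), Cadm1 and Itgax passed with adjusted p of 0.0376 and 0.0330, and Xcr1 and Naaa had adjusted p of 0.0800 and 0.0732. By that test 3.36% of all genes passed.

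Cadm1 had the smallest p of the 10. Its lowest, median and highest intensities were 737, 819 and 1123 on arrays 3 and 4, against 981, 1160 and 1298 on arrays 1 and 2. All arrays numbered 3 and 4 except KO draining array 3 lay below the lowest array numbered 1 or 2. The difference was -0.44 ± 0.08 (adjusted p = 0.00575, limma). For Xcr1 the values were 1240, 1628 and 2138 on arrays 3 and 4, against 1755, 2315 and 2495 on arrays 1 and 2, a difference of -0.44 ± 0.10 (adjusted p = 0.0159, limma). The arrays of Xcr1 overlapped, since Het draining array 3 and KO draining array 3 lay within the range of arrays 1 and 2.

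Itgax read 772, 887 and 1076 (lowest, median and highest) on arrays 3 and 4, against 850.0, 1159 and 1509 on arrays 1 and 2. The overlap here was wide, and the difference was -0.34 ± 0.08 (adjusted p = 0.0139, limma). Naaa read 2744, 3444 and 4035 on arrays 3 and 4, against 3548, 4004 and 4658 on arrays 1 and 2, a difference of -0.28 ± 0.07 (adjusted p = 0.0202, limma). Snx22 at -0.33 ± 0.11 and Itgae at -0.36 ± 0.15 had differences of like size and did not pass, with adjusted p of 0.0715 and 0.139. Gcsam was at -0.20 ± 0.11, Btla at -0.16 ± 0.10, Cd8a at -0.09 ± 0.10 and Cd24a at -0.03 ± 0.08.

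The difference between numbers was also read within each group, and how it differed between groups was not tested. The median over the 10 markers was -0.08 in KO draining cells, with 6 of 10 lower on arrays 3 and 4, and -0.19 in Het draining cells, with 9 lower. It was -0.37 in KO non-draining cells, with 9 lower, and -0.49 in Het non-draining cells, with all 10 lower. Xcr1 differed by 0.10 in KO draining, -0.44 in Het draining, -0.68 in KO non-draining and -0.73 in Het non-draining cells. In the same order of groups Cadm1 differed by -0.12, -0.60, -0.49 and -0.55. Itgax was lower on arrays 3 and 4 in all 4 groups, by -0.21 to -0.53, and Naaa likewise, by -0.15 to -0.46. Cd8a was lower on arrays 3 and 4 in Het cells, by -0.20 in draining and -0.43 in non-draining nodes, while in KO cells the values were 0.12 and 0.15.

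**Figure D3:**
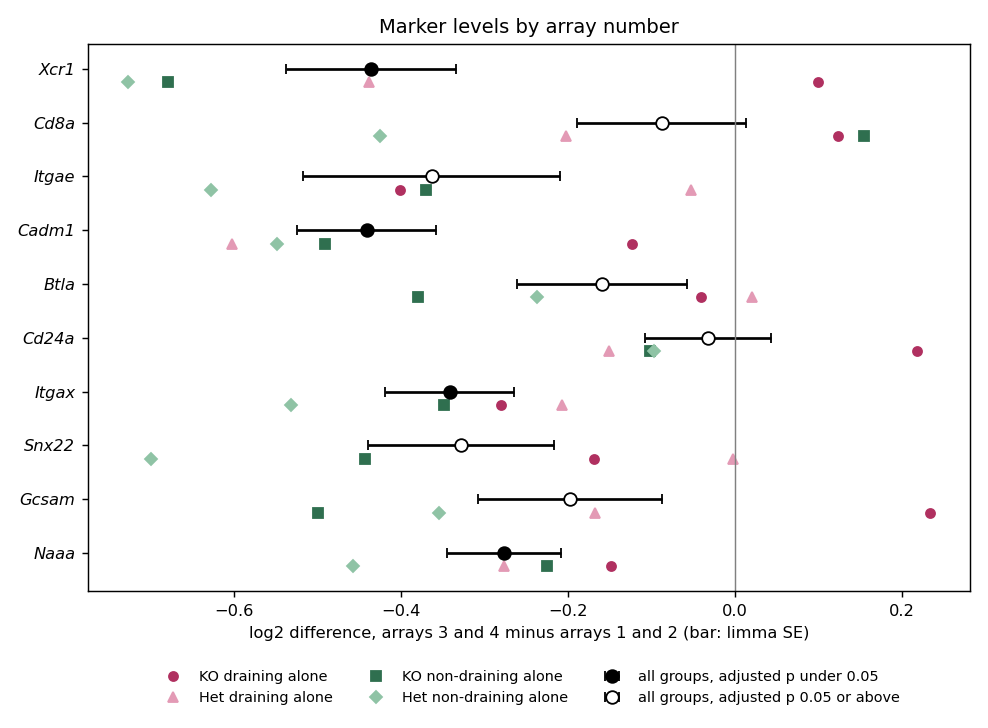
Log2 difference of arrays 3 and 4 from arrays 1 and 2 for each of the 10 markers (horizontal axis), from the fit over all groups with its limma standard error as a bar and within each of the 4 groups as points. Xcr1, Cadm1, Itgax and Naaa passed at an adjusted p under 0.05, and the Het non-draining points lie below 0 for all 10 markers, lowest at -0.73 for Xcr1.

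The other cDC1 genes did not all follow the 10 markers in this comparison. Of 18 measured, 12 were lower and 6 higher, with a median of -0.18. Past the threshold (limma, adjusted p under 0.05) 8 fell and 1 rose, where 3.88% of all genes passed lower and 7.20% higher. Tlr3, the endosomal receptor for double-stranded RNA that cDC1 carry, read 666, 739 and 1087 (lowest, median and highest) on arrays 3 and 4, against 1014, 1470 and 1907 on arrays 1 and 2. It fell by 0.81 on the log2 scale (SE 0.11, adjusted p = 0.00104, limma), more than any of the 10 markers. Septin3, of the septin family of filament-forming GTPases, changed by -0.52 ± 0.09 and Wdfy4 by -0.40 ± 0.07, and Clnk, Rab7b, Ifi205, Notch4 and Plpp1 fell too. Batf3 rose by 0.54 ± 0.07 (adjusted p = 0.000847, limma), with 925, 1045 and 1138 on arrays 3 and 4, against 585, 717 and 777 on arrays 1 and 2. The arrays of Batf3 did not overlap, as was so for 1.75% of all genes. Irf8 was at -0.14 ± 0.09 and did not pass.

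Markers of other cells moved in the same comparison, in which 7.20% of all genes passed higher and 3.88% lower. All 13 T cell markers were higher on arrays 3 and 4, with a median of 0.56, and 8 passed, among them Thy1 at 0.58 ± 0.09, Il7r at 0.53 ± 0.10 and Lat at 0.74 ± 0.16 (limma). Their summed intensity had a lowest, median and highest of 2180, 3258 and 3834 on arrays 3 and 4, against 1350, 1994 and 3497 on arrays 1 and 2. Cd8b1 rose by 0.61 ± 0.14, while Cd8a, which CD8 T cells also express, was at -0.09 ± 0.10, and Cd3e was at 0.56 ± 0.18 with an adjusted p of 0.0560. All 8 markers of migratory dendritic cells were higher as well, with a median of 0.37, and 4 passed, among them the chemokine gene Ccl17 at 0.85 ± 0.10, Nudt17 at 0.66 ± 0.10 and Socs2, a feedback inhibitor of cytokine signalling, at 0.46 ± 0.11. Their summed intensity had a lowest, median and highest of 17191, 20072 and 21443 on arrays 3 and 4, against 11177, 15618 and 21355 on arrays 1 and 2. Ccr7 was at 0.24 ± 0.09 with an adjusted p of 0.0963.

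The summed intensity of the 10 cDC1 markers had a lowest, median and highest of 9917, 11552 and 13848 on arrays 3 and 4, against 12078, 13598 and 15744 on arrays 1 and 2. The 11 B cell markers were all higher on arrays 3 and 4 with a median of 0.18 and 0 passed, with Ms4a1 at 0.02 ± 0.18. Of the 9 cDC2 markers 7 were higher and 0 passed, with Sirpa at 0.41 ± 0.15 and an adjusted p of 0.0894. The part of other cells in the fall of the 4 markers was not tested.

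**Figure D4:**
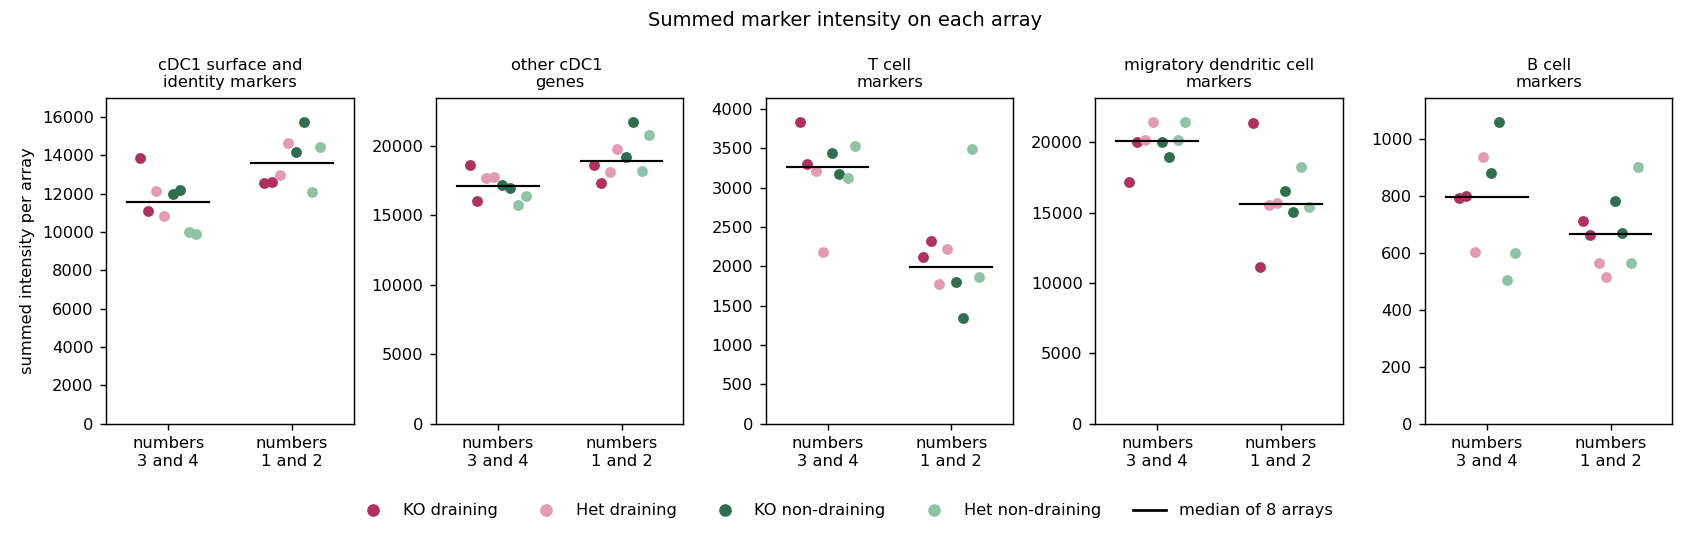
Summed linear intensity (vertical axis) of the 10 cDC1 markers, the other cDC1 genes and 3 lists of markers of other cells on each of the 16 arrays, for arrays 3 and 4 and for arrays 1 and 2 (horizontal axis), with groups in colours and the median of 8 arrays as a line. The T cell sums have a median of 3258 on arrays 3 and 4 and 1994 on arrays 1 and 2, while those of the 10 markers have medians of 11552 and 13598.

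Across the 16 arrays the 10 markers varied together to different degrees. Over their 45 pairs Pearson's r of the log2 levels had a median of 0.60, and 44 pairs were above 0. The highest was 0.91 for Xcr1 with Cadm1 and the lowest -0.11 for Itgae with Cd24a. These values are descriptions over 16 arrays that share 1 normalization and the difference between array numbers. Of the 19937 other genes, those most like Xcr1 were P2ry6, a receptor for extracellular UDP, at 0.91, Cadm1 at 0.91, Olfm1 at 0.91, Rhobtb2 at 0.90 and Heg1 at 0.89. Of the remaining markers Naaa ranked at position 26 with 0.81, Gcsam at 338 with 0.67, Snx22 at 340 with 0.67 and Itgax at 414 with 0.65. Btla ranked at 1076, Itgae at 1444, Cd8a at 1501 and Cd24a at 3032, with r between 0.41 and 0.56.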

How the data were processed

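RNA from 16 sorted cDC1 samples was hybridised to 1 array each. The authors deposited intensity values of 35556 probe sets, linear and not logged. They are RMA values according to the submitters' processing notes, and the software is not given in the sources used here. Such values can understate differences of dim genes. The arrays as analysed did not share 1 distribution: the upper quartile of intensity over the genes was 141 to 153 on arrays 3 and 4 and 126 to 146 on arrays 1 and 2, and an added quantile normalization was an alternative. Arrays have no depth, and their number limits the precision.

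Of the probe sets, 21789 carried 1 gene symbol, 1621 several and 12146 none in the platform annotation, and the gene ID of 21698 matched the mouse gene table. The brightest probe set of each symbol gave 19938 genes. No column was without a sample. Groups and replicate numbers came from the labels. Of any 2 arrays, at most 31 values were identical.

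Intensities were tested two-sided as log2(intensity + 1) with limma 3.58.1 (R 4.3.3) and 1 fit of the 4 groups (12 residual degrees of freedom), with Benjamini-Hochberg adjustment over all genes. Array number was tested in a fit of group plus number. The test was checked on simulated data, but no result of that check is given here, so it lends the p-values no support. Python 3.11.15 and matplotlib 3.10.9 gave the summaries and plots. Alternatives were a pseudocount of 16, the brighter genes alone (9969, all 10 markers among them), the mean of all probe sets of a gene, added quantile normalization, trended and robust moderation, the replicate number as a block, arrays 1 and 2 or 3 and 4 alone, and each array left out. Same-numbered arrays of the 2 nodes had an r of 0.20 to 0.31 over genes in Het cells. The array of the same number was the best partner there for numbers 2 and 4, and not for numbers 1 and 3. In KO cells r was 0.45 and 0.48 for numbers 2 and 4, -0.01 for number 1 and 0.20 for number 3. The numbers differ in level as well, so these values cannot tell whether a number pairs the samples. In the other comparisons of 2 groups at least 1 number had an r under 0.1.

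The markers and the lists of other genes were chosen with earlier results of these data known. The differences of all 10 markers are given for KO against Het in each node and for array number. In the other comparisons the counts and medians cover all 10, while only some markers, or none, have their differences printed. Of each other list, counts, medians and at most 3 genes of smallest p were named, besides the defining markers Cd3e, Cd8b1, Ms4a1, Ccr7 and Sirpa, and the 5 genes most like Xcr1 by Pearson's r were named, passing over predicted genes. Irf8, Clec9a, Wdfy4 and the other cDC1 genes past the threshold were named beside these. NK cell, plasmacytoid dendritic cell, macrophage, neutrophil, stromal and erythroid lists were measured too. In the comparison of array numbers their members past the threshold were 1 of 9 higher for NK cells, 2 higher and 1 lower of 7 for plasmacytoid dendritic cells, 3 of 10 higher for macrophages and monocytes, 1 of 8 higher for stromal cells, and 0 of 9 for neutrophils and 0 of 4 for erythroid cells. In that comparison 7.20% of all genes passed higher and 3.88% lower, so a count of 1 in such a short list is near that share. No member of any list passed in a comparison of genotype or node. Some genes of the lists were not analysed here. Protein sequences were not used here.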

Additional observations from a re-analysis of the deposited data

How the results depend on the processing

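The falls of Xcr1, Cadm1, Itgax and Naaa on arrays 3 and 4 passed in all 21 settings run for that comparison, with adjusted p (limma) of 0.00365 to 0.0413, 0.00128 to 0.0191, 0.00275 to 0.0364 and 0.00232 to 0.0479 in that order. The settings reuse most of the same arrays, and the split was taken with earlier results known. They are therefore no independent support for it. With no split named (limma F test), Xcr1 and Naaa did not pass, with adjusted p of 0.0800 and 0.0732. Snx22 passed in 3 of the 21, among them brighter genes alone (-0.33) and added quantile normalization (-0.39), and Itgae in 1. The count of genes past the threshold there, 2209, lay between 1281 and 3015 with 1 array left out. It was lower by over 1.5 times without KO draining array 4 (1281), Het draining array 3 (1282), KO non-draining array 4 (1339) or Het non-draining array 4 (1402). The F test's count, 670, lay between 274 and 1073. It was 1073 without Het draining array 2, 1016 without KO draining array 1, 336 without Het draining array 3, 314 without KO draining array 4, 388 and 306 without Het non-draining arrays 3 and 4, and 274, 365 and 327 without KO non-draining arrays 2, 3 and 4.

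In the comparisons of genotype and node, 0 of 1680 values of a marker over all settings passed, and the smallest adjusted p was 0.295 (limma). Arrays 3 and 4 alone gave 4 genes past the threshold for the genotypes on the draining side, 2 on the other side and 5 over both, and 1 for the nodes of KO mice, where all arrays gave 0. The replicate number as a block gave 1 gene for the genotypes over both nodes and changed no other call. The cause was not tested.

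Of 1280 marker differences with 1 array left out 69 had the opposite sign, and of 610 in other settings 32, all of 0.33 or less in size over all arrays. Many of these values could not change sign, so the counts overstate how stable the signs are. Leaving out an array of a group that is not compared keeps the difference of the compared groups as it was. The mean of all probe sets also keeps it, since each marker has 1 probe set. In draining nodes, KO minus Het was -0.10 for Gcsam and -0.0222 for Naaa within arrays 1 and 2, and 0.12 for Xcr1, 0.15 for Cd8a, 0.18 for Cadm1 and 0.10 for Cd24a within arrays 3 and 4. Draining minus non-draining in Het mice was -0.20 for Itgae, -0.14 for Itgax, -0.0188 for Snx22 and -0.0496 for Gcsam within arrays 1 and 2. In KO mice it was 0.30 for Xcr1, 0.12 for Cadm1, 0.0015 for Itgax, 0.10 for Snx22 and 0.10 for Gcsam within arrays 3 and 4. The interaction was 0.0708 for Itgax within arrays 1 and 2, and -0.27 for Itgae and 0.0266 for Cd24a within arrays 3 and 4. KO minus Het as a mean of nodes was -0.10 for Xcr1, -0.0337 for Cd8a, -0.0622 for Cadm1 and -0.0903 for Cd24a within arrays 1 and 2. Draining minus non-draining as a mean of genotypes was -0.17 for Xcr1, -0.0365 for Itgae, -0.0079 for Cadm1 and -0.0956 for Snx22 within arrays 1 and 2, and 0.0675 for Btla, 0.0939 for Itgax and 0.12 for Gcsam within arrays 3 and 4. Quantile normalization gave 0.0030 for Itgax between the nodes of KO mice, 0.0173 for Itgax between nodes as a mean of genotypes, and -0.0031 for Cd24a between genotypes as a mean of nodes.

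With 1 array left out, KO minus Het in draining nodes spanned -0.15 to 0.12 for Cd8a, -0.0785 to 0.41 for Itgae, -0.17 to 0.0528 for Cadm1, -0.11 to 0.0506 for Btla, -0.16 to 0.0110 for Cd24a, -0.0087 to 0.16 for Gcsam and -0.0467 to 0.13 for Naaa. Draining minus non-draining spanned -0.0505 to 0.24 for Itgae, -0.0937 to 0.0466 for Cd24a, -0.10 to 0.13 for Itgax and -0.0501 to 0.15 for Gcsam in Het mice. In KO mice it spanned -0.22 to 0.0207 for Xcr1, -0.18 to 0.30 for Itgae, -0.17 to 0.0427 for Cadm1, -0.11 to 0.13 for Itgax, -0.17 to 0.0678 for Snx22 and -0.0932 to 0.0339 for Naaa. The interaction spanned -0.27 to 0.22 for Itgae and -0.17 to 0.10 for Itgax. As a mean of nodes KO minus Het spanned -0.0296 to 0.11 for Xcr1 and -0.0406 to 0.0458 for Cd24a, and as a mean of genotypes draining minus non-draining spanned -0.0495 to 0.19 for Itgae, -0.14 to 0.0118 for Btla and -0.0662 to 0.0750 for Itgax.

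The median standard error over all genes was 0.12 for a simple comparison and 0.18 for the interaction, and the 4 arrays a group limit what can pass.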
